A study of Mus musculus with 6 samples.

Results

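The genes described here are 34 DNA damage response and repair genes, a list chosen by function, among the 21485 genes counted in all 6 samples of the series. All 34 were found in every sample, and all 34 passed the filter on low counts in every comparison. They comprise 4 damage-signalling kinases, 4 break sensors and mediators, 5 genes of homologous recombination, 2 of the Fanconi anaemia pathway, 5 of non-homologous end joining, 8 of base excision and single-strand break repair, 4 of nucleotide excision repair, 1 mismatch repair gene and the replication ligase Lig1.

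The samples were cultures of muscle-derived stem/progenitor cells (MDSPCs), slowly adhering mouse cells enriched by repeated transfer of non-adherent muscle cells to new flasks. The series held 3 populations called young (replicates 1 to 3) and 3 called old (replicates 1 to 3), all with no treatment named and all grown in the same serum-rich proliferation medium. Each was sequenced once with a droplet-based 3′ single-cell method, and the labels call each a biological replicate. Age, sex, strain and passage number are not stated in the labels, so that what separates the groups is known here only as young and old, and all cells had been expanded in culture.

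Cells repair DNA by several routes. Homologous recombination copies an intact sister chromatid and is used mainly after replication, the Fanconi pathway clears crosslinks that stall replication forks, non-homologous end joining ligates broken ends throughout the cell cycle, and excision pathways replace damaged bases or short stretches. Many genes of recombination and replication-coupled repair are known targets of the E2F factors, which drive transcription at the entry into S phase, whereas DREAM-type repressors hold such genes down in resting cells.

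RefSeq promoter windows of GRCm38.p6, the assembly that mm10 corresponds to, were found by symbol for 28 of the 34 genes; each spans 250 bases before and 50 after a transcript start. They are shown because the genes below differed mainly by cell cycle phase. An E2F-type motif was searched as TTTGGCGC, TTTCCCGC, TTTGCCGC or TTTCGCGC on both strands. It was present in 2.26% of all 32851 windows and 2.61% of the 27025 genes in the RefSeq table, and in 7 of the 28 genes with a window. The table holds genes whether or not they were expressed here, and the share among the genes tested was not computed. All 7 lay among the 19 genes with a window that were higher in S than in G1, and none among the other 9. The 8 matches in these 7 genes follow with 10 bases on either side, in the direction of transcription, with the match in capitals. The Brca2, Chek2, Lig1 and Xrcc6 stretches and the second Rad51c stretch carry it on the opposite strand. The Rad51c matches belong to different transcript starts. Counted to its first base, the match began 27 bases after the start in Lig1, 16 in Msh6 and 12 in the first Rad51c stretch, within transcribed sequence. Those at −168 in Brca2, −152 in Chek2, −46 in Xrcc6 and −16 in Mdc1 lay upstream, and the match of the second Rad51c stretch began at −5 and ran across the start.

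Brca2 (chr5:150522443-150522470, plus strand): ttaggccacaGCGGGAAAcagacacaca

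Chek2 (chr5:110839821-110839848, plus strand): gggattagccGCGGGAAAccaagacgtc

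Lig1 (chr7:13278842-13278869, plus strand): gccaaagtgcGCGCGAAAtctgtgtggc

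Rad51c (chr11:87404478-87404505, minus strand): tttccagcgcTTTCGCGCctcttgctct

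Rad51c (chr11:87404942-87404969, minus strand): ccccgcgaggGCGGGAAAagcaaggggt

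Xrcc6 (chr15:82016313-82016340, plus strand): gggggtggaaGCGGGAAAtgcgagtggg

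Mdc1 (chr17:35841472-35841499, plus strand): cttcagcctgTTTCCCGCcggtagccgc

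Msh6 (chr17:87975055-87975082, plus strand): tcctcccgacTTTCCCGCcagcggcggc

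The CHR element of mitotic genes (TTTGAA, both strands) was in 17.9% of all windows, 20.2% of all genes in the RefSeq table and none of the 28 genes. The CCAAT box (CCAAT, both strands) was in 37.4% of all windows, 41.1% of all genes in the RefSeq table and 15 of the 28 genes. Of these 15, 12 were among the 19 and 3 among the other 9. A match is a description of letters and not of binding, and a missing match says only that these spellings are not in the window. The windows of Brca1 and Chek1, the 2 genes with the largest difference between S and G1, held no match to the E2F-type spellings. The capitals in Brca1 mark its CCAAT box. The Chek1 window ends in the stretch ttttggcgggaa. Its final gcgggaa lacks only the last base of GCGGGAAA, which is TTTCCCGC read on the opposite strand. The window stops there, so the search could not tell whether the next base completes a match.

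Brca1 (chr11:101551906-101552205, minus strand): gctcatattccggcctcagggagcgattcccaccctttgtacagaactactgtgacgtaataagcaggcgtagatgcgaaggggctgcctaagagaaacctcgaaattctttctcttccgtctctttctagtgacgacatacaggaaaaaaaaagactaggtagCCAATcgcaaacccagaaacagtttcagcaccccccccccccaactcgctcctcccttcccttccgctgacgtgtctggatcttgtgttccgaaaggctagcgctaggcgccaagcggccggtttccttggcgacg

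Chek1 (chr9:36726609-36726908, minus strand): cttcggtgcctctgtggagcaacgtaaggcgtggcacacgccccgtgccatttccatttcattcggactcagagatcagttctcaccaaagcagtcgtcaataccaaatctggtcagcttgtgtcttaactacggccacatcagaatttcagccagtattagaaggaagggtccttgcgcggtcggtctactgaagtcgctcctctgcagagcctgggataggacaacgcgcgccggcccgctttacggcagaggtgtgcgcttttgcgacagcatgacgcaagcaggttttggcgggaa

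Between 8674 and 12541 cells per sample were kept, with a median of 12818 to 19686.5 UMIs per cell. UMIs (unique molecular identifiers) count RNA molecules. Cells of 5000 or more UMIs were thinned to 5000 UMIs and called G1, S or G2/M from 43 S and 54 G2/M genes, none of them among the 34. G1-called cells are all those with neither score above 0 and so include resting cells. Of 60303 cells, 17.5% lay within 0.05 of a calling limit. The share called S or G2/M, the cycling share, was 48.8%, 55.2% and 85.6% in young replicates 1 to 3 and 79.8%, 33.4% and 62.9% in old replicates 1 to 3. The means were 63.2% ± 19.6 in young and 58.7% ± 23.5 in old populations (SD, n = 3 each; exact two-sided permutation test, p = 0.9, where 0.1 is the smallest p that 3 against 3 allows). Without young replicate 3 the difference, old minus young, turned to 6.68 percentage points, and without old replicate 2 to 8.17. The scale used for levels is CPM, counts scaled to a common library total. Summed levels of 10 myogenic markers ranged from 367 CPM in young replicate 3 to 4223 CPM in old replicate 3. Myod1, the muscle determination factor, was at 42.3 to 963 CPM, and Pax7, the satellite cell factor, at 11.1 to 55.5 CPM except 0.0245 CPM in young replicate 3. Myf5 was at 10.8 to 53.4 CPM except 0.00882 CPM in young replicate 1, and Vcam1 at 10.5 to 90.8 CPM, highest in young replicate 3. Myog ran from 5.62 CPM in old replicate 1 to 990 CPM in old replicate 3, and Des from 2.49 CPM in young replicate 3 to 454 CPM in old replicate 3. Sums of 6 fibro-adipogenic markers were 185 to 436 CPM, with Gsn at 134 to 304 CPM and Col3a1 (12.8 to 132 CPM) and Smoc2 (1.18 to 103 CPM) both highest in young replicate 2, while Pdgfra was at 1.88 CPM or below and Lum at 0 in 5 populations. Sums of 4 endothelial markers were 0.609 to 1.44 CPM except 59.6 CPM in young replicate 2, nearly all of it Tek, and of 4 immune markers 1.33 to 9.06 CPM. Sums of 4 smooth muscle and pericyte markers were 12.1 to 88.4 CPM, highest in young replicate 2, and of 3 Schwann markers 0.573 to 1.91 CPM. The sum of the surface markers Cd34 and Ly6a was 29.5, 11.5 and 36.4 CPM in young and 125, 156 and 44.7 CPM in old replicates 1 to 3. The sums did not overlap between the groups, but the values of each gene alone did. Cd34 was at 21.5 CPM in young replicate 3 and 21.4 CPM in old replicate 3. Ly6a was at 22.9 CPM in young replicate 1 and 17.7 CPM in old replicate 1. Of all single genes tested, 6.24% had no overlap. Ptprc, which marks all leukocytes, was at 0.0475 CPM or below. The part of such differences in the values below was not tested.

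Most of the 34 genes were higher in S-called than in G1-called cells of the same population, by up to 11.4-fold for Brca1. In the comparison of S with G1 over the 6 populations, 22 genes rose and 7 fell at an adjusted p under 0.05 (edgeR quasi-likelihood test, sample as a term, Benjamini-Hochberg over all genes). Of all 14426 genes tested, 24.1% were called higher and 31.6% lower. In the comparison of G2/M with G1, 23 rose and 5 fell, against 24.4% and 31.1% of all genes. The median log2 fold change of the 34 genes was 0.77 for S over G1 and 0.73 for G2/M over G1, beside −0.05 and −0.04 for all genes tested. These values are CPM, a gene's share of all counts after TMM scaling, which corrects for differences in library composition. Because CPM are shares, and cycling cells held more UMIs, the fit was repeated on UMIs per cell, a choice made after seeing the data. It moved the median of all genes to 0.14 for S over G1 and 0.30 for G2/M over G1. On that scale 25 genes rose and 2 fell in S (39.2% and 12.0% of all genes), and 30 rose and none fell in G2/M (57.1% and 7.38%). The genes that rose on UMIs per cell and not on CPM were Prkdc, Ercc1 and Ercc2 in S and Rad52, Xrcc4, Lig4, Apex1, Polb, Lig3 and Ercc3 in G2/M.

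The rise covered every population for most genes. All 22 genes that rose in S were higher in S than in G1 in 6 of 6 populations, as were 19.2% of all genes that passed the filter in whole populations. For 15 of them the lowest S value lay above the highest G1 value over all 6 populations, which held for 4.0% of all genes. The same was true of 14 genes in G2/M against G1 (3.88%). No gene of the 34 lay wholly below its G1 values in S or in G2/M, as 0.491% and 0.292% of all genes did. Of the 34 genes, 13 rose by over 1 on the log2 scale in S, and 7 by over 2, as did 4.69% and 1.91% of all genes tested. None of the 34 fell by over 1 in S, beside 3.27% of all genes, a share that 34 genes are too few to tell from none.

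**Figure D1:**
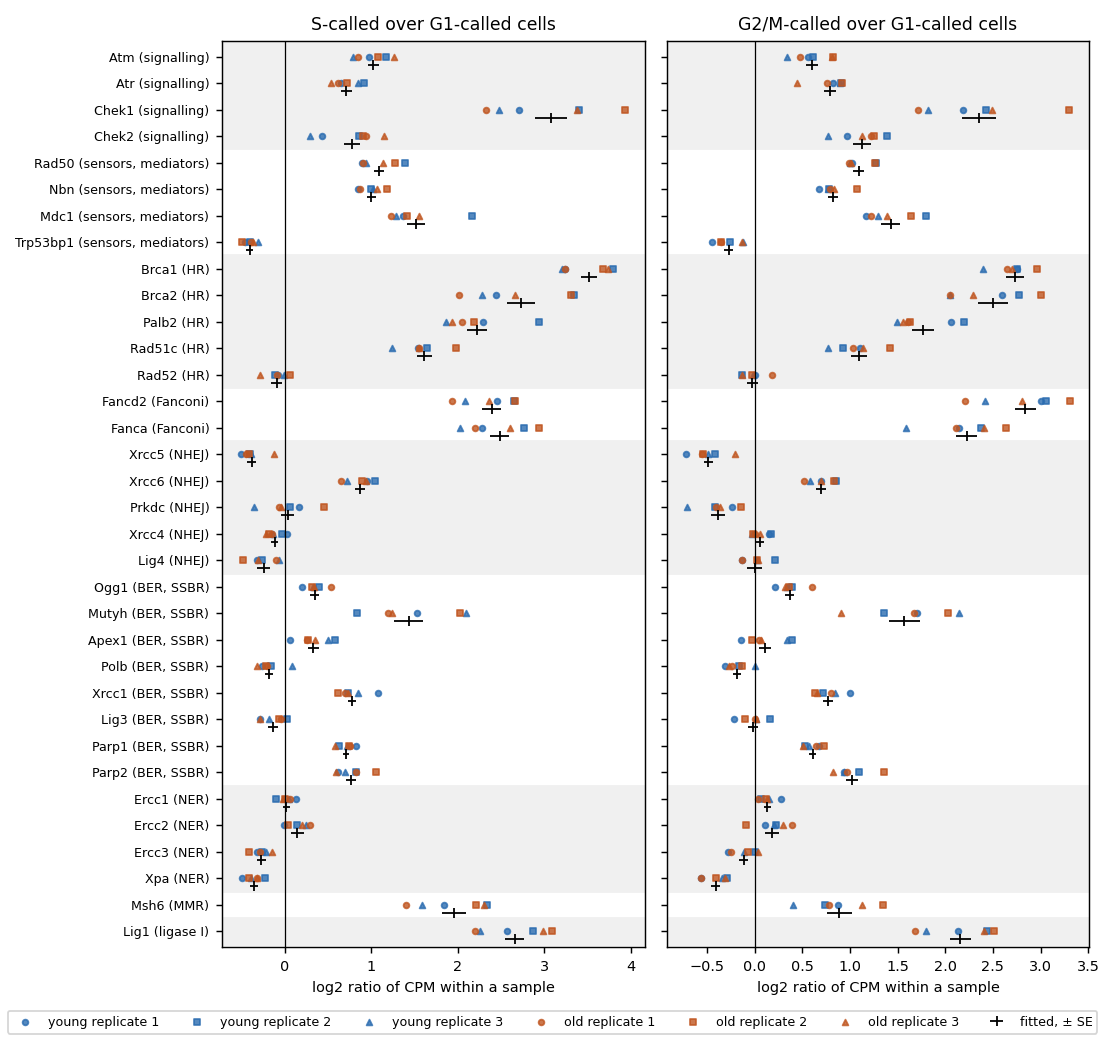
Log2 ratio of CPM of S-called over G1-called cells (left) and of G2/M-called over G1-called cells (right) for each of the 34 genes, with 1 point for each of the 6 populations and the fitted value ± SE in black. Brca1 (3.52 in S), Chek1, Brca2 and both Fanconi genes stood far to the right of 0, while Rad52 lay near 0 and Trp53bp1, Xrcc5, Polb and Xpa had fitted values left of 0 in both panels, although on UMIs per cell Polb turned to above 0 in both and Trp53bp1 in G2/M.

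Among the damage-signalling kinases, all 4 rose in S and in G2/M, where 24.1% and 24.4% of all genes rose. Here and below, repair routes were not compared with each other by a test. Chek1, the effector kinase that holds back mitosis when replication forks stall, changed most. Chek1 was at 2.86, 2.46 and 5.00 CPM in G1-called cells of young replicates 1 to 3 and at 3.72, 1.54 and 2.73 CPM in old replicates 1 to 3. In S-called cells the values were 18.7, 25.9 and 27.9 CPM in young and 18.6, 23.6 and 28.3 CPM in old populations. Every S value was therefore above every G1 value, and the 2 age groups overlapped in both phases. The log2 fold change was 3.08 (SE 0.18; edgeR, adjusted p = 1.55e-08), an 8.44-fold difference. In G2/M-called cells it was at 12.2 to 17.6 CPM, 2.36 above G1 and 0.72 below S on the log2 scale, and both differences passed the test.

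Atm and Atr, the kinases that head the responses to double-strand breaks and to single-stranded DNA, moved less than Chek1. Atm was at 17.1, 12.8 and 19.5 CPM in G1 of the young and 28.7, 13.3 and 13.3 CPM in G1 of the old populations. In S it was at 33.6, 28.8 and 33.8 CPM in young and 51.8, 28.1 and 31.8 CPM in old populations, with old replicate 1 highest in both phases. Its log2 fold change was 1.02 (SE 0.06) in S and 0.60 (SE 0.06) in G2/M. Atr rose from 7.76 to 11.4 CPM over the 6 populations in G1 to 12.2 to 16.5 CPM in S, with no overlap, by 0.71 in S and 0.79 in G2/M (SE 0.06 each). Chek2, the effector kinase downstream of Atm, rose by 0.78 (SE 0.10) in S and by 1.13 (SE 0.09) in G2/M, and was higher in G2/M than in S by 0.35.

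Of the 4 break sensors and mediators, 3 rose and 1 fell in S, where 24.1% of all genes rose and 31.6% fell. Rad50 and Nbn, partners in the MRN complex that binds broken ends, rose in S by 1.09 (SE 0.06) and 1.00 (SE 0.05) on the log2 scale. Mdc1, the adaptor that reads phosphorylated H2AX beside a break, rose by 1.52 (SE 0.10), and its window carries an E2F-type match shown above. Trp53bp1 encodes 53BP1, which shields broken ends from resection and so favours end joining over recombination. It was at 22.4, 32.0 and 27.4 CPM in G1 and 16.3, 24.2 and 22.1 CPM in S of young replicates 1 to 3. In old replicates 1 to 3 it was at 23.2, 28.6 and 34.9 CPM in G1 and 17.6, 20.3 and 27.1 CPM in S. Each population was lower in S, although the ranges of the 2 phases overlapped. The log2 fold change was −0.41 (SE 0.04) in S and −0.27 (SE 0.04) in G2/M, of which the second turned to 0.07 on UMIs per cell and did not pass. In S, Trp53bp1 was lower on that scale too (−0.21, SE 0.07; edgeR, adjusted p = 0.0159).

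**Figure D2:**
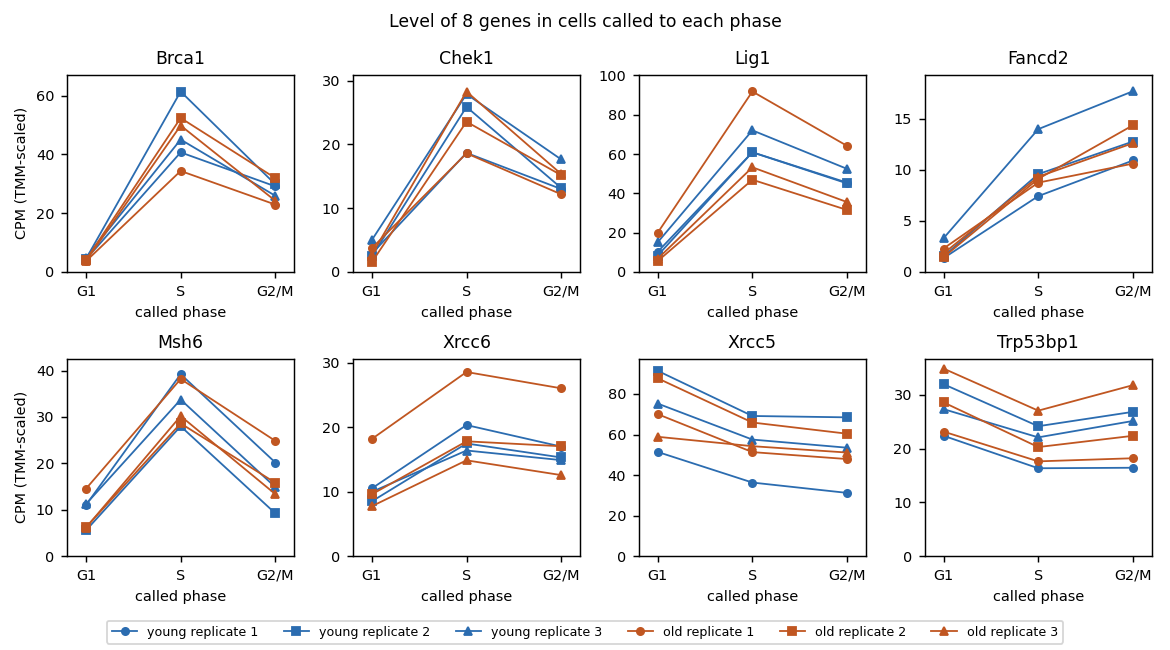
CPM of 8 genes in G1-, S- and G2/M-called cells, with 1 line for each of the 6 populations (young blue, old orange). Brca1, Chek1, Lig1 and Msh6 peaked in S in all 6, Fancd2 was highest in G2/M, and Xrcc6 rose while Xrcc5 and Trp53bp1 were lower in S than in G1.

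Of the 5 homologous recombination genes, 4 rose in S and in G2/M, where 24.1% and 24.4% of all genes rose. Brca1, which promotes end resection and brings Palb2 and Brca2 to the break, was at 4.31, 4.42 and 4.91 CPM in G1 of young replicates 1 to 3. In G1 of old replicates 1 to 3 it was at 3.65, 4.10 and 3.73 CPM. In S it was at 40.7, 61.4 and 45.0 CPM in young and 34.4, 52.4 and 49.8 CPM in old populations. The G1 values lay close together at 4.19 ± 0.466 CPM and the S values at 47.3 ± 9.45 CPM (SD, n = 6). The log2 fold change was 3.52 (SE 0.09; edgeR, adjusted p = 1.25e-12) in S and 2.73 (SE 0.09) in G2/M. Counted per cell, this was a mean of 6.34 Brca1 UMIs per 100 G1-called cells, 83.3 per 100 S-called cells and 52.8 per 100 G2/M-called cells.

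Brca2, which acts with Palb2 in homologous recombination, was at 2.71, 2.04 and 3.39 CPM in young and 4.56, 2.80 and 2.48 CPM in old populations in G1. It was at 14.8, 20.6 and 16.4 CPM in young and 18.4, 27.8 and 15.7 CPM in old populations in S, again with no overlap between phases. It rose by 2.73 in S and by 2.50 in G2/M (SE 0.16 each), and the difference between G2/M and S, −0.22, did not pass the test. Palb2, the bridge between Brca1 and Brca2, was at 1.11 to 2.10 CPM in G1 and 5.43 to 8.74 CPM in S and rose by 2.22 (SE 0.12). Rad51c, which also acts in homologous recombination, rose by 1.61 (SE 0.08). Rad52, which anneals single strands and has a minor part in recombination in mammals, was at 4.17 to 8.81 CPM in G1 and 4.34 to 8.24 CPM in S. Its differences of −0.09 in S and −0.02 in G2/M (SE 0.06 each) did not pass, and both turned positive on UMIs per cell, where the G2/M difference of 0.33 passed.

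Both Fanconi genes rose in S and in G2/M, where 24.1% and 24.4% of all genes rose. Fanca, a subunit of the core complex that adds ubiquitin to Fancd2, was at 2.25, 1.35 and 3.57 CPM in young and 2.75, 1.26 and 1.57 CPM in old populations in G1. It was at 10.9, 9.16 and 14.5 CPM in young and 12.6, 9.63 and 9.56 CPM in old populations in S, and rose by 2.48 in S and 2.23 in G2/M (SE 0.11 each). The difference between G2/M and S, −0.26 (SE 0.10), did not pass for Fanca (edgeR, adjusted p = 0.078). Fancd2, the protein so marked, was at 1.36, 1.53 and 3.30 CPM in young and 2.30, 1.45 and 1.81 CPM in old populations in G1. In G2/M it was at 10.9, 12.8 and 17.7 CPM in young and 10.6, 14.4 and 12.6 CPM in old populations. Its log2 fold change was 2.39 in S and 2.84 in G2/M (SE 0.11 each). Fancd2 had the largest fitted increase from S to G2/M of the 34 genes, 0.45 (SE 0.09; edgeR, adjusted p = 0.00404), and was higher in G2/M in each population.

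The end joining genes did not move together: in S, 1 of 5 rose, 3 fell and 1 did not pass, where 24.1% of all genes rose and 31.6% fell. On UMIs per cell 2 of the 5 rose and 1 fell, beside 39.2% and 12.0% of all genes. A group of 5 is too small to be told from these shares. Xrcc6 and Xrcc5 encode Ku70 and Ku80, the 2 subunits of the ring that grips broken ends. Xrcc6 was at 10.5, 8.48 and 9.95 CPM in young and 18.2, 9.58 and 7.73 CPM in old populations in G1, and at 20.3, 17.5 and 16.4 CPM in young and 28.6, 17.8 and 14.9 CPM in old populations in S. Xrcc5 was at 51.4, 91.5 and 75.3 CPM in young and 70.1, 87.8 and 58.9 CPM in old populations in G1, and at 36.3, 69.1 and 57.5 CPM in young and 51.3, 65.9 and 54.2 CPM in old populations in S. Thus Xrcc6 was higher and Xrcc5 lower in S in each population. Xrcc6 rose by 0.87 (SE 0.05) and Xrcc5 had a log2 fold change of −0.38 (SE 0.05). On UMIs per cell Xrcc5 was still lower in S (−0.19, SE 0.07; edgeR, adjusted p = 0.03), but its G2/M difference of −0.14 did not pass.

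The change of the ratio of Xrcc6 to Xrcc5 does not depend on how a library is scaled. Its log2 value was higher in S than in G1 by 1.46, 1.45 and 1.11 in young replicates 1 to 3 and by 1.10, 1.31 and 1.06 in old replicates 1 to 3. The mean was 1.25 ± 0.18 (SD, n = 6). The ratio was chosen after the values of both genes were seen, so that it is given as a description with no test. In G2/M the mean change was 1.18 ± 0.20. The ratio itself in G1 was 0.204 in young replicate 1 and 0.259 in old replicate 1. Both samples were counted on a shorter list of genes than the others, where the ratio was 0.0928 to 0.132. The part of the list in this was not tested. These are RNA counts, and protein levels were not measured.

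Prkdc, the catalytic subunit of the DNA-dependent protein kinase that Ku recruits, was at 14.6, 22.6 and 26.2 CPM in young and 20.7, 17.3 and 19.8 CPM in old populations in G1. In G2/M it was at 12.3, 16.9 and 16.0 CPM in young and 15.7, 15.7 and 15.4 CPM in old populations, lower in each population. Its log2 fold change was −0.38 (SE 0.07) in G2/M and 0.04 (SE 0.07) in S, where it did not pass. On UMIs per cell the G2/M value of Prkdc shrank to −0.03 and did not pass, while the S value of 0.24 passed as higher. Xrcc4 and Lig4, which form the ligase complex of this pathway, fell in S by small amounts, −0.11 (SE 0.04) and −0.24 (SE 0.08), and neither was called lower on UMIs per cell, where Xrcc4 turned to 0.08. In G2/M neither passed, but on UMIs per cell both were called higher, Xrcc4 by 0.40 and Lig4 by 0.34. The Xrcc4 call was lost without old replicate 2 or 3, at −0.11 and −0.095, and the Lig4 call without old replicate 2, at −0.21, and with sums of thinned counts, at −0.27.

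Of the 8 base excision and single-strand break repair genes, 6 rose and 1 fell in S, where 24.1% of all genes rose and 31.6% fell. Mutyh, the glycosylase that removes adenine opposite oxidised guanine, rose by 1.43 (SE 0.17) from levels of 0.464 to 1.59 CPM in G1, where as few as 13 UMIs were counted in a population. Xrcc1, the scaffold of single-strand break repair, rose by 0.78 (SE 0.05), and Parp2, a break sensor, by 0.77 (SE 0.06). Parp1, the main poly(ADP-ribose) polymerase, was at 32.6, 50.9 and 60.6 CPM in young and 47.8, 38.5 and 35.8 CPM in old populations in G1. In S it was at 57.7, 78.3 and 99.8 CPM in young and 80.9, 64.7 and 53.4 CPM in old populations. Parp1 rose by 0.71 (SE 0.04) in S and 0.61 (SE 0.04) in G2/M, in each population. Apex1, the main nuclease for abasic sites, was at 171, 130 and 134 CPM in young and 171, 123 and 170 CPM in old populations in G1. In S it was at 179, 194 and 189 CPM in young and 204, 149 and 216 CPM in old populations, a rise of 0.33 (SE 0.06). The G2/M difference of 0.11 for Apex1 did not pass, but it did on the longer gene list (0.19), without young replicate 1 (0.15) and on UMIs per cell (0.45). Ogg1, which excises oxidised guanine, rose by 0.35 (SE 0.05). Polb, the gap-filling polymerase, fell by 0.18 in S and by 0.19 in G2/M (SE 0.05 each), which on UMIs per cell turned to 0.01 and to 0.16, where the second passed as higher. The Polb call in G2/M was lost on the longer gene list, at −0.14 (edgeR, adjusted p = 0.0654). Lig3, the ligase that seals these gaps, did not pass in either phase. In S it did pass as lower under DESeq2 (−0.15, adjusted p = 0.0186), with DESeq2 size factors, without young replicate 2 or old replicate 1, with the highest doublet scores removed and with phases called without thinning, but was at 0.06 on UMIs per cell. In G2/M Lig3 passed as higher on UMIs per cell (0.33).

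None of the 4 nucleotide excision repair genes rose in S on CPM with all called cells and 2 fell, where 24.1% of all genes rose and 31.6% fell. A group of 4 is too small to be told from these shares. Ercc2 rose in S without cells near the phase limits (0.23; edgeR, adjusted p = 0.0376), and on UMIs per cell Ercc1 (0.21) and Ercc2 (0.33) rose. Xpa, the damage-verification protein, was lower in S (−0.36, SE 0.05) and in G2/M (−0.41, SE 0.05), in each population. On UMIs per cell Xpa was at −0.16 in S and −0.06 in G2/M and did not pass. Ercc3, a helicase of the TFIIH complex, fell by 0.27 (SE 0.05) in S, and on UMIs per cell its difference was −0.08 and did not pass. In G2/M Ercc3 was at −0.11 and did not pass, but was called lower under DESeq2 (−0.14), with its size factors and without old replicate 3, and higher on UMIs per cell (0.23). Ercc1, part of a repair nuclease, and Ercc2, the other TFIIH helicase, rose in G2/M by 0.13 (SE 0.04) and 0.18 (SE 0.07). The call for Ercc2 in G2/M was lost under DESeq2, at a log2 fold change of 0.16, and without any of 5 samples, at 0.13 to 0.19. It was also lost with DESeq2 size factors, no filter, the longer gene list, the highest doublet scores removed, phases called without thinning and thinned sums. The Ercc1 call was lost without young replicate 1, at 0.086.

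Msh6, which recognises mismatches, had the largest fall from S to G2/M of the 34 genes. Msh6 was at 11.0, 5.52 and 11.2 CPM in young and 14.5, 6.19 and 6.10 CPM in old populations in G1, and at 39.2, 28.0 and 33.8 CPM in young and 38.2, 28.6 and 30.2 CPM in old populations in S. In G2/M it was at 20.2, 9.20 and 14.9 CPM in young and 24.8, 15.8 and 13.4 CPM in old populations. This was still above G1 in each population, by 0.89 (SE 0.13; edgeR, adjusted p = 7.55e-05). It rose by 1.96 (SE 0.13) in S, and its G2/M level was below S by a log2 value of −1.07 (SE 0.13; edgeR, adjusted p = 8.55e-05). Lig1 joins Okazaki fragments during replication. Lig1 was at 10.3, 8.37 and 15.1 CPM in young and 19.9, 5.54 and 6.72 CPM in old populations in G1. It was at 60.9, 60.9 and 72.1 CPM in young and 91.8, 46.9 and 53.3 CPM in old populations in S, a rise of 2.66 (SE 0.11), followed by 2.16 (SE 0.11) in G2/M against G1.

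From S to G2/M, 8 of the 34 genes rose and 11 fell (edgeR, adjusted p under 0.05), against 9.61% and 8.93% of all genes. Lower in G2/M were Atm, Chek1, Nbn, Brca1, Palb2, Rad51c, Xrcc6, Prkdc, Apex1, Msh6 and Lig1, with Msh6 first, then Brca1 at −0.78 and Chek1 at −0.72. Higher were Fancd2, Chek2, Lig4, Parp2, Xrcc4, Ercc3, Trp53bp1 and Ercc1, by 0.11 to 0.45. Of these, Ercc3, Ercc1 and Trp53bp1 were close to the threshold (edgeR, adjusted p = 0.0456, 0.0495 and 0.0499). The count of genes that rose was 4 without young replicate 2 or 3 or old replicate 2 or 3, with no filter on low counts, on the longer gene list and with sums of thinned counts. On UMIs per cell 11 rose and 8 fell, against 30.8% and 2.68% of all genes, so that the share that rose was near that of all genes.

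A further 96 damage response and repair genes were read from the same fits, of which 9 belong to the phase-scoring sets and were left out here. Of the other 87, 57 rose and 13 fell in S, and 55 rose and 15 fell in G2/M, with a median of 0.42 and 0.36 on the log2 scale. Of all genes 24.1% rose and 31.6% fell in S, and 24.4% and 31.1% in G2/M. By route, 10 of 12 recombination genes and 10 of 11 Fanconi genes rose in S, as did 1 of 5 end joining and 3 of 11 nucleotide excision genes, shares near that of all genes. So did 7 of 8 damage-signalling, 7 of 9 break sensing, 4 of 5 mismatch and 6 of 14 base excision genes. Of translesion synthesis and direct reversal 7 of 10 rose, and of replication protein A 2 of 2. Those that fell were 4 nucleotide excision, 3 end joining, 3 base excision, 2 translesion synthesis or direct reversal and 1 break sensing gene. The largest increases in S were those of Neil3 (5.09, SE 0.20), a glycosylase, Eme1 (3.95, SE 0.16), a resolvase subunit, Rad54l (3.78, SE 0.23), a recombination motor, and Fancb (3.60, SE 0.18). The largest decreases were those of Paxx (−0.74, SE 0.11), an accessory factor of end joining, Dclre1c (−0.57, SE 0.07), the Artemis nuclease, Neil1 (−0.51, SE 0.08) and Xpc (−0.48, SE 0.06), the damage sensor of nucleotide excision. On UMIs per cell 63 of the 87 were called higher and 4 lower in S, beside 39.2% and 12.0% of all genes. In G2/M 75 were called higher and 2 lower on that scale, beside 57.1% and 7.38% of all genes.

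Old and young populations were then compared over all kept cells. None of the 34 genes was called in either direction (edgeR quasi-likelihood test with the gene list as a term, adjusted p under 0.05), where 0.00664% of all 15064 genes were called higher and 0.0% lower. None had an unadjusted p under 0.05, and DESeq2 called none of the 34 either, while it called 198 genes higher and 39 lower in all. Log2 fold changes, old over young, ran from −0.43 for Xpa to 0.41 for Mutyh with a median of −0.05, beside −0.01 for all genes. For 29 of the 34 the difference was smaller than its own SE, which was 0.20 to 0.54. The 3 young and 3 old values of none of the 34 were separate, beside 6.24% of all genes, a share that 34 genes are too few to tell from none. With SEs of this size a missed threshold does not show that the groups were alike.

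**Figure D3:**
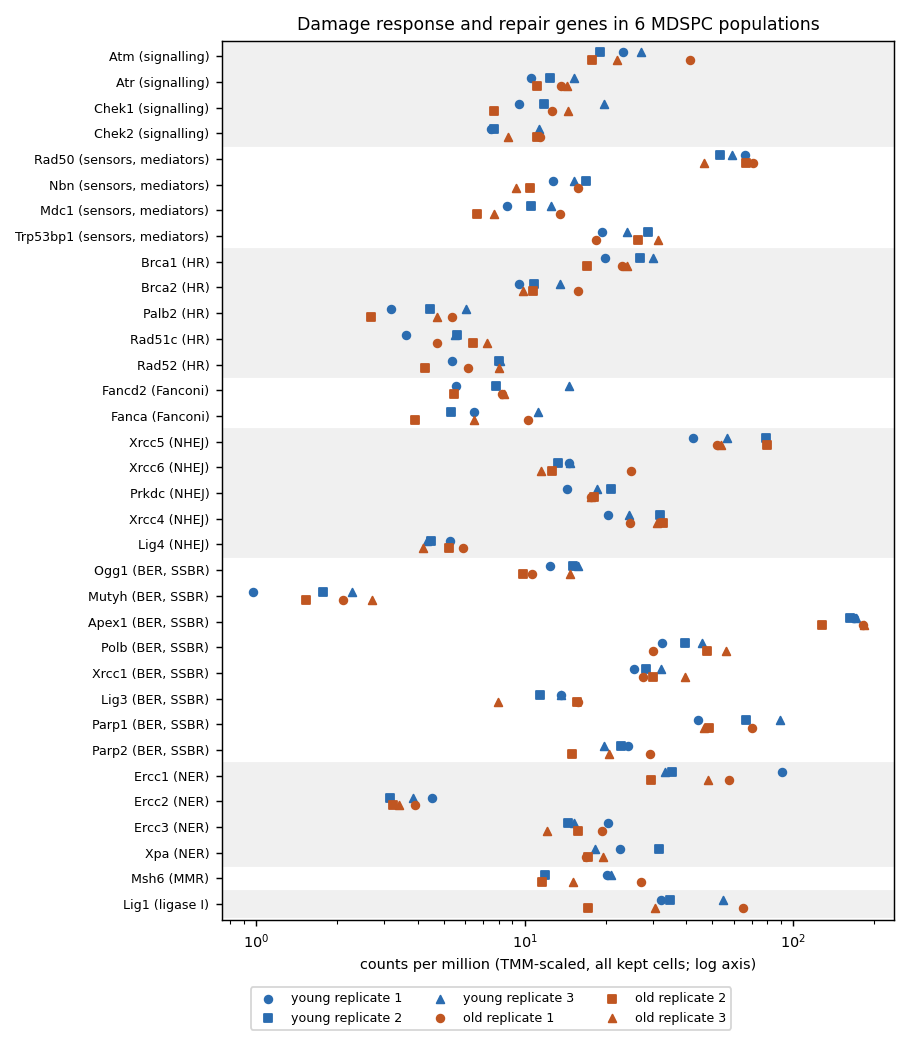
Level of each of the 34 genes in all kept cells of each population, in CPM on a log axis (young blue, old orange, 1 symbol shape per replicate number). Young and old points overlap for every gene, and the widest spread is that of Lig1, from 17.2 to 64.7 CPM.

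The 6 genes with the smallest unadjusted p were Xpa, Nbn, Ogg1, Rad51c, Xrcc4 and Brca1. Xpa was at 22.6, 31.5 and 18.3 CPM in young replicates 1 to 3 and 17.0, 17.2 and 19.5 CPM in old replicates 1 to 3. Young replicate 2 was highest, young replicate 3 lay below old replicate 3, and the fit gave −0.43 for old over young (SE 0.27, unadjusted p = 0.163 in edgeR). Nbn was at 12.7, 16.9 and 15.2 CPM in young and 15.9, 10.5 and 9.28 CPM in old populations, a difference of −0.37 (SE 0.30), with old replicate 1 inside the young range. Both genes lie on chromosome 4, whose genes as a whole stood 0.16 higher on the log2 scale in young replicate 2 than their median over the 6 populations, and the part of this in either value was not tested apart from the alternative below. Ogg1 was at 12.4, 15.2 and 15.8 CPM in young and 10.7, 9.86 and 14.7 CPM in old populations (−0.30, SE 0.25). Rad51c was at 3.62, 5.58 and 5.51 CPM in young and 4.73, 6.42 and 7.27 CPM in old populations (0.33, SE 0.29). Xrcc4 was at 20.4, 31.8 and 24.5 CPM in young and 24.6, 32.9 and 31.2 CPM in old populations (0.21, SE 0.20). Brca1 was at 20.0, 26.8 and 30.1 CPM in young and 23.1, 17.1 and 24.0 CPM in old populations (−0.25, SE 0.26).

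Old replicate 2 was the highest of the populations for Xrcc4, and its genes on chromosomes 13 and 11 stood 0.32 above their median over the 6 populations on the log2 scale, with those on chromosome 5 at 0.24. Chromosome 13 carries Xrcc4, chromosome 11 carries Rad50, Brca1, Rad51c and Lig3, and chromosome 5 carries Chek2 and Brca2. Brca1, however, was lowest in old replicate 2, at 17.1 CPM. In young replicate 3 the genes on chromosome 6, which carries Fancd2, Rad52 and Ogg1, stood 0.37 higher, and Fancd2 was highest there, at 14.6 CPM against 5.46 to 8.34 CPM in the others. Young replicate 3 also had the largest cycling share, 85.6%. The part of chromosome shifts or cycling share in the level of any 1 gene was not tested. With these chromosome shifts removed, still none of the 34 genes was called between old and young.

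The kinases and Ku genes overlapped between the groups as well. Atm was at 23.3, 19.2 and 27.1 CPM in young and 41.3, 17.8 and 22.1 CPM in old populations, a mean of 23.2 ± 3.99 against 27.1 ± 12.5 CPM (SD, n = 3 each), with old replicate 1 far above the rest. Atr was at 10.6, 12.4 and 15.3 CPM in young and 13.6, 11.1 and 14.4 CPM in old populations. Trp53bp1 was at 19.4, 28.8 and 24.0 CPM in young and 18.5, 26.5 and 31.4 CPM in old populations. These 3 genes had log2 fold changes of 0.13 (SE 0.31), 0.04 (SE 0.26) and 0.06 (SE 0.21). Xrcc5 was at 42.2, 79.0 and 56.7 CPM in young and 51.8, 79.9 and 54.0 CPM in old populations. Xrcc6 was at 14.7, 13.3 and 14.7 CPM in young and 24.9, 12.6 and 11.5 CPM in old populations. Again only old replicate 1 stood apart for Xrcc6, and the fold changes of the Ku genes were 0.09 (SE 0.26) and 0.11 (SE 0.28).

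Prkdc was at 14.4, 20.9 and 18.5 CPM in young and 17.6, 18.1 and 17.6 CPM in old populations, with a fitted difference that rounds to 0 and an SE of 0.22. Parp1 was at 44.1, 66.8 and 89.3 CPM in young and 70.4, 48.5 and 46.5 CPM in old populations (−0.26, SE 0.35). Apex1 was at 169, 163 and 171 CPM in young and 181, 128 and 183 CPM in old populations (−0.03, SE 0.23). Ercc1 had its highest value, 90.8 CPM, in young replicate 1, where the other populations were at 29.7 to 57.5 CPM. That sample and old replicate 1, the next highest, were counted on a shorter gene list than the other 4, and Ercc1 overlaps Cd3eap on the opposite strand. The part of either in the Ercc1 values was not tested. In all, 13 of the 34 genes share exon sequence with a gene on the opposite strand, among them Trp53bp1, Xrcc6, Fancd2, Xrcc4, Apex1, Msh6 and Lig1. The strand setting of the counting is not given in the sources used here, so reads of such pairs may not be separable.

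**Figure D4:**
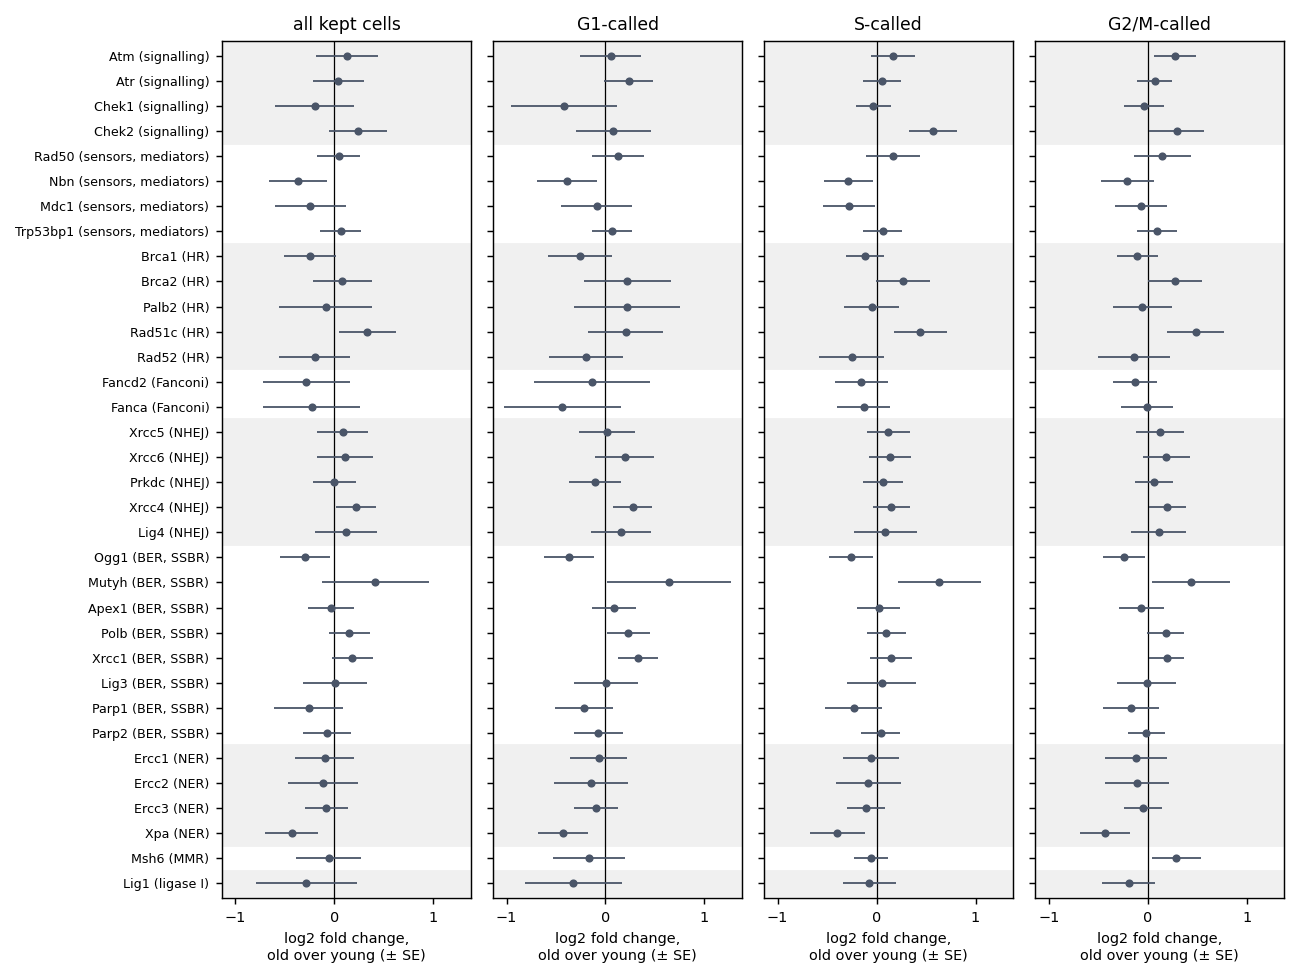
Log2 fold change, old over young, with its SE for the 34 genes in all kept cells and in G1-, S- and G2/M-called cells. Values lie between −0.44 and 0.64 in all panels, and most bars cross 0.

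Within a called phase none of the 34 genes was called between old and young either. In G1-called cells 0.0% of all genes were called in either direction, and in S-called and G2/M-called cells 0.00744% and 0.00712% were called higher. The make-up of a call still differed between populations: cells near a calling limit were 10.0% of the G1-called cells of old replicate 2 and 30.6% of those of young replicate 3. The smallest unadjusted p was that of Chek2 in S-called cells, with a log2 fold change of 0.57 (SE 0.24; edgeR, unadjusted p = 0.058, adjusted p = 0.999). Xpa kept a similar value in each phase, −0.43 in G1, −0.40 in S and −0.44 in G2/M, with SEs of 0.25 to 0.28. Nor did any of the 34 pass the test of whether the phase difference itself was different in old populations, for which 0.0% of all genes passed. Chek2 came nearest: its log2 ratio of S over G1 was 0.43, 0.86 and 0.29 in young replicates 1 to 3 and 0.94, 0.90 and 1.15 in old replicates 1 to 3. The young and old ratios of Chek2 did not overlap, with old higher, which held for 1 of the 34 genes and 3.09% of all genes. Those of Xrcc1 and Xrcc4 did not overlap either, with old lower, which held for 2 of the 34 and 3.5% of all genes. These counts are near the shares of all genes, and the Chek2 interaction of 0.46 (SE 0.16) did not pass over all genes (edgeR, unadjusted p = 0.0136, adjusted p = 0.998).

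The levels of the phase-dependent genes over whole populations were set beside each population's cycling share. The 13 genes used here were chosen by their S over G1 difference in these same cells. Levels that follow the cycling share, and a smaller SD with equal phase weights, are thus largely given by that choice. The counts below are a description and not a test. Of the 13 genes that rose by over 1 in S, 9 were lowest in old replicate 2, which had the smallest cycling share, and of all 34 genes 14 were, beside 16.4% of all genes that passed the filter. Of the same 13, 11 were highest in young replicate 3 or old replicate 1, the 2 populations with the largest cycling shares, as were 20 of the 34 and 34.4% of all genes. Chek1 was at 9.49, 11.8 and 19.7 CPM in young and 12.7, 7.69 and 14.5 CPM in old populations, and Lig1 at 32.1, 34.6 and 54.7 CPM in young and 64.7, 17.2 and 30.6 CPM in old populations. Each population's level was then recomputed as the mean of its G1, S and G2/M levels with equal weight. The SD of log2 CPM over the 6 populations became smaller for 10 of the 13 genes, and its median moved from 0.451 to 0.299. For Chek1 the SD moved from 0.473 to 0.222, for Palb2 from 0.451 to 0.203 and for Lig1 from 0.678 to 0.381. For Rad50, Brca2 and Rad51c it became larger, from 0.352 to 0.446 for Rad51c. Among the other 21 genes it became smaller for 12, with a median of 0.310 before and 0.295 after.

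**Figure D5:**
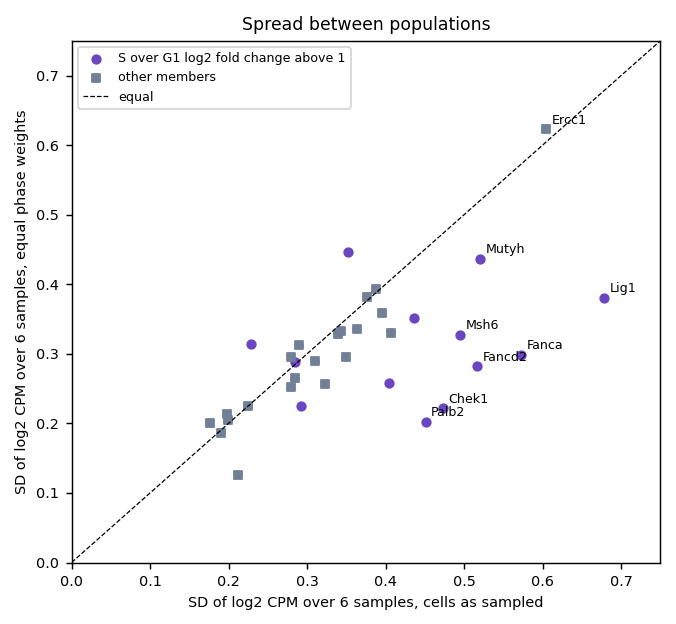
SD of log2 CPM over the 6 populations for each of the 34 genes, with cells as sampled (horizontal axis) and with equal weight for G1, S and G2/M (vertical axis). Of the 13 genes that rose by over 1 in S (circles), 10 lie below the dashed line of equality, and Ercc1 has the largest SD with equal weights.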

How the data were processed

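Per the file headers, the authors counted UMIs with Cell Ranger 7.0.0 (young replicate 1 and old replicate 1, on a list of 21849 features) or 7.2.0 (the other 4, 32285 features), and deposited raw counts per gene and cell with no normalization. The submitters' processing notes name the build mm10, Cell Ranger 7.2.0 and Seurat 5.134. Treatment of intronic reads and the strand setting are not given in the sources used here. Only the 21485 shared genes were used.

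Barcodes with at least 1000 UMIs, at least 500 genes and a mitochondrial share under 15% were taken as cells, 61671 of 62849. Scrublet called 2 doublets, under the 0.5% at which it counts as working. Both were removed, other doublets remained, and 7.13% to 10.2% were expected. Free RNA was not estimated. Any 2 samples shared 24 to 41 barcodes.

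Counts were summed per sample, or per sample and called phase (18 sums), so that the sample was the replicate. Nothing in the labels says how separate the cultures were beyond the word biological, so p-values measure the spread between these 6 samples. Sums were fitted with edgeR 4.0.16 in R 4.3.3 (TMM, filterByExpr, robust quasi-likelihood test, two-sided), with Benjamini-Hochberg adjustment over all genes at 0.05. Phases were called with scanpy 1.11.5. SEs were derived from the fold change and its F statistic. Each of the 34 genes was read against itself across samples and phases, and levels of different genes among them were not compared. The fits were tested on simulated data. Genes given in full were the 6 with the largest called differences in S or G2/M over G1, the 6 with the smallest p in old over young, and Atm, Atr, Trp53bp1, Prkdc, Xrcc5, Xrcc6, Parp1 and Apex1. Msh6 and the Chek2 ratios were added after their values were seen. Up to 4 of the further pathway genes were named per direction. The 34 genes and the lists were chosen with earlier results of these data known.

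The alternatives were DESeq2 1.42.0, its size factors, no filter, the longer gene list only, no term for the list, the replicate block, the cycling share as covariate, chromosome shifts removed, only cells of 5000 or more UMIs, the highest doublet scores removed, other phase calls, thinned sums and each sample left out. Deviations of young and old samples of the same replicate number correlated at 0.394, 0.279 and −0.106 for replicates 1 to 3. Those of unlike number correlated at −0.478 to 0.327. The first pair had the highest value and shares the shorter gene list. These values do not settle whether samples pair, and the main fits used no pairing of young with old samples.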

Additional observations from a re-analysis of the deposited data

Results flagged for a closer look

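In 3 of 68 sets of 6 per-population log2 ratios, 1 population lay far from the other 5 by Dixon's test (gap over range above 0.625), where chance alone marks about 1 set in 20. The log2 ratio of Atr in G2/M over G1 was 0.441 in old replicate 3 and 0.764 to 0.914 in the other populations. The log2 ratio of Mdc1 in S over G1 was 2.16 in young replicate 2 and 1.23 to 1.55 in the others. The log2 ratio of Xrcc5 in S over G1 was −0.118 in old replicate 3 and −0.502 to −0.389 in the others. All 3 kept the direction of the other populations.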

How the results depend on the processing

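None of the 34 genes was called between old and young under any alternative run, including each sample left out, and 22 were called higher in S over G1 in all of those that left out a sample. Scaled per cell, which was chosen after seeing the data, 2 genes were called lower in S over G1 and 0 in G2/M over G1, and of the further 87 pathway genes 4 and 2. For G2/M over S, 4 of the 34 were called higher with no filter, with the longer gene list only and with thinned sums, and 4 to 6 with 1 sample left out. The count was 4 without old replicate 2, old replicate 3, young replicate 2 or young replicate 3. Of the further 87 genes, 10 were called higher and 26 lower in G2/M over S in the main fit, beside 9.61% and 8.93% of all genes. The number called higher was 2 on the longer list, 6 with thinned sums and 3 to 10 with 1 sample left out (3 without old replicate 1). Per cell 24 were called higher and 14 lower, beside 30.8% and 2.68% of all genes. In old over young DESeq2 called 1 of 95 further pathway genes higher in G1-called and 1 of 95 in S-called cells, where the main fit called 0. These are 1.05% each, near the 1.02% and 1.01% of all genes that DESeq2 called higher there. With 1 sample left out, the difference in cycling share ran from −15.1 to 8.17 percentage points, and it was −22.3 over the 4 samples counted on the longer list. The cause of these shifts was not tested.

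Some differences between old and young, each smaller than its SE, changed sign. On the longer list Atm was at −0.21, Atr at −0.12, Xrcc5 at −0.019 and Xrcc6 at −0.21. Per cell Apex1 was at 0.0055 and Prkdc at 0.080. Prkdc was also at 0.0096 with the cycling share as covariate and at 0.00047 in cells of 5000 or more UMIs. With the replicate block Prkdc was at 0.0015, and no gene of the 34 was called, as without the block. With 1 sample left out, Apex1 ran from −0.17 to 0.12, Atm from −0.24 to 0.38, Atr from −0.14 to 0.19, Prkdc from −0.16 to 0.078, Trp53bp1 from −0.028 to 0.13, Xrcc5 from −0.057 to 0.26 and Xrcc6 from −0.24 to 0.25.

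For S over G1, sign changes gave −0.018 for Ercc1 on the longer list and, per cell, 0.058 for Lig3, 0.011 for Polb, 0.11 for Rad52 and 0.082 for Xrcc4. With 1 sample left out, Ercc1 ran from −0.029 to 0.040 and Prkdc from −0.055 to 0.093. The Xrcc4 call in S was lost without old replicate 2 (−0.11) or old replicate 3 (−0.095), and the Lig4 call without old replicate 2 (−0.21) and with thinned sums (−0.27).

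For G2/M over G1, per-cell scaling gave 0.23 for Ercc3, 0.33 for Lig3, 0.16 for Polb, 0.33 for Rad52 and 0.074 for Trp53bp1, and the longer list gave 0.024 for Lig3. Lig4 was at −0.023 with DESeq2 size factors, −0.026 under DESeq2, −0.042 with the highest doublet scores removed, −0.0060 with phases called without thinning and −0.038 without cells near the limits. With 1 sample left out, Lig3 ran from −0.055 to 0.0059, Lig4 from −0.044 to 0.012 and Rad52 from −0.078 to 0.0042. The Ercc1 call in G2/M was lost without young replicate 1 (0.086), and that of Ercc2 without any of 5 samples (0.13 to 0.19). Phase sums already used only cells of 5000 or more UMIs, except those with phases called without thinning. These took all kept cells, so that alternative changed the cells as well as the calls. The alternatives with the block, no term for the list, the covariate or chromosome shifts apply to old over young only. Depth limited the G1 values of Mutyh, with as few as 13 UMIs in a population.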
